A study of Homo sapiens with 5 samples.

Results

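The genes described here encode elongation factors of RNA polymerase II, namely the 6 subunits of the PAF1 complex (PAF1c), SPT5, SPT6 and both subunits of the histone chaperone FACT. They were taken by symbol, by a rule that uses no measured value but was set with earlier results of these data known, and all 10 were found in each of the 3 deposited tables, among 11102 genes in the USP28-KO table and 12342 in the tables of reconstituted cells. RNA was sequenced from HLF, an established human hepatocellular carcinoma line, in 5 conditions with 1 listed sample each. USP28-Ctrl cells carry a control guide RNA (sgCtrl) and USP28-KO cells a guide against the deubiquitinase USP28 (sgUsp28). The other conditions are USP28-KO cells with the empty pRRL-Ctrl vector, with wild-type USP28 (USP28-WT, pRRL-Usp28-WT) or with monomeric USP28 (USP28-M, pRRL-Usp28-Mono). Knockout cells were picked as single clones, both alleles were HA-tagged and delivered by lentivirus, and USP28-M carries a point mutation in the dimer interface. All groups share the HLF background, and their labels give no treatment, although knockout and transduced cells had been through antibiotic selection when the lines were made.

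RNA polymerase II pauses shortly after initiation and is released into productive elongation, during which it has to pass nucleosomes. PAF1c travels with the polymerase, supports its processivity and directs histone modification on transcribed genes. SPT5 clamps the nucleic acids in the polymerase and, with SPT4, forms the pausing factor DSIF, which becomes an activator once phosphorylated. SPT6 and FACT disassemble and restore nucleosomes around the moving enzyme. The study asked how dimerization of USP28, which removes ubiquitin from MYC, bears on the recruitment of PAF1c. The values below are mRNA levels and do not measure recruitment.

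The measurement used is the average expression that the authors' edgeR fits gave each gene, in log2 CPM (read counts scaled to the total of the library) over all libraries of a fit. One fit, here the knockout fit, averages USP28-Ctrl and USP28-KO libraries. The other, the reconstitution fit, averages the vector, USP28-WT and USP28-M libraries, and its averages stand unchanged for all 12342 genes in both tables made from it. Values of single libraries or single conditions were not analysed here, so there is no spread between replicates, no test between conditions, and no statement on how USP28 changed a gene. USP28 itself had an average log2 CPM of 5.15 in the knockout fit and of 9.79 in the reconstitution fit, which includes the cells that received a USP28 vector. From the steps between the lowest averages, 1 read over all libraries was worth 0.13 CPM in the knockout fit and 0.0328 CPM in the reconstitution fit, so that the 10 genes together had about 13483 and 53229 reads. This step was clearer in the knockout fit, where 98.1% of low genes came within 0.1 reads of a whole number, than in the reconstitution fit, where 68.1% did. Intervals given below are exact 95% intervals for reads of this depth and cover counting error only. Of the hepatocyte markers, ALB and AFP were listed in neither fit, and SERPINA1 was listed in the reconstitution fit only, at 1.04 CPM per kb. The keratins KRT8 and KRT18 and the mesenchymal marker VIM lay above 1000 CPM in both fits, while EPCAM and CDH1 were not listed. The other mesenchymal markers were lower, with 211 and 268 CPM for CDH2, 45.7 and 71.8 for S100A4, and 80.1 and 36.8 for FN1. By level per kb, FN1 lay at percentile 38.7 of all genes in the knockout fit and 28.5 in the reconstitution fit. Of the markers of blood and endothelial cells, only CD68, a lysosomal protein, was listed, at 61.7 and 113 CPM per kb, and its part in the results was not tested.

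To compare genes with one another, the average CPM was divided by the length of the GENCODE protein-coding transcript with the longest coding sequence, which gives CPM per kilobase (kb). On this scale the FACT subunits, PAF1 and SPT5 were the most abundant members and the other PAF1c subunits the least abundant. Of the 10 genes, 9 lay above the median of all genes in the knockout fit (13 CPM per kb) and 8 in the reconstitution fit (9.95 CPM per kb). In each fit 5 of the 10 were in the top 25% of all genes, among them PAF1 as the only one of the 6 PAF1c subunits. Together the 10 mRNAs accounted for 0.175% of the reads in both fits.

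**Figure D1:**
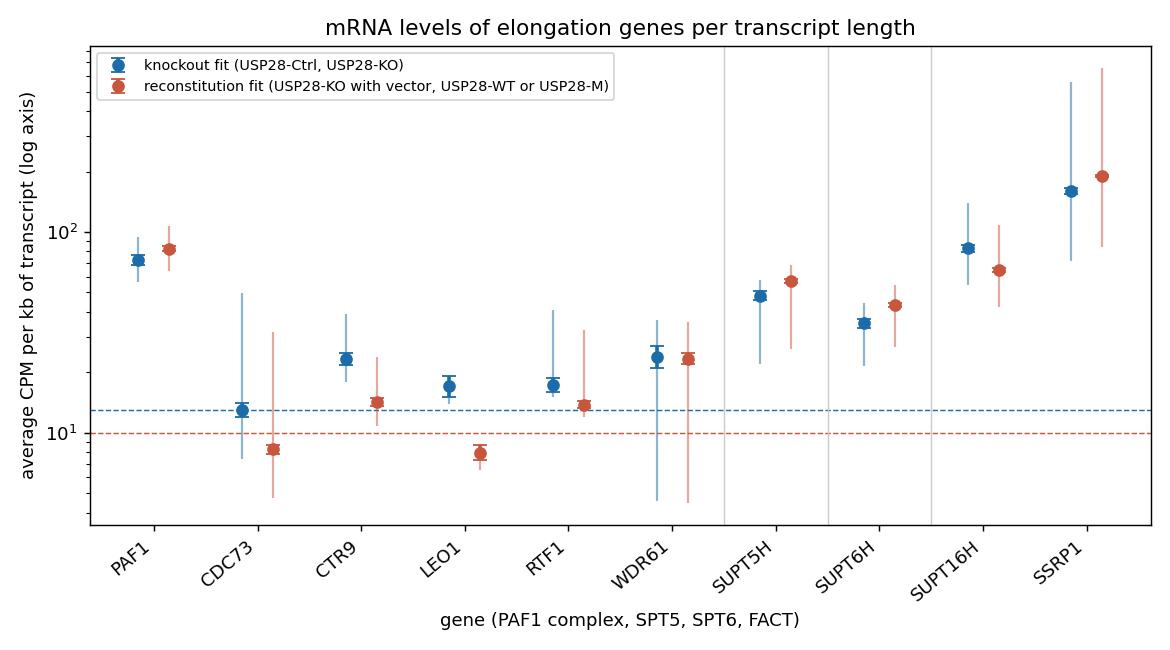
Average CPM per kb of transcript (log axis) of each gene in the knockout fit (blue) and the reconstitution fit (red). Thick bars with caps are 95% counting intervals, thin lines span the values under 4 choices of transcript length, and dashed lines are the medians of all genes; SSRP1 is the highest gene in both fits, at 161 and 190 CPM per kb.

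PAF1, the subunit that names the complex and helps to hold it together, was the most abundant PAF1c mRNA. Its average was 150 CPM in the knockout fit and 170 CPM in the reconstitution fit, or 72.8 CPM per kb (95% interval 68.7 to 77.1) and 82.5 CPM per kb (80.2 to 84.7). This placed PAF1 at percentile 89.4 and 91.8 of all genes by level per kb. No other subunit exceeded 25 CPM per kb with the chosen transcript. With this transcript, PAF1 thus stood apart from its partners in both fits. With the length of the coding sequence alone, PAF1 stayed above CDC73, but only 1.89-fold in the knockout fit and 3.38-fold in the reconstitution fit.

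WDR61, a small WD-repeat protein that is shared with the SKI complex of cytoplasmic RNA decay, had few reads but a short transcript of 1387 bases. Its average of 33.2 CPM in the knockout fit and 32.5 CPM in the reconstitution fit corresponds to 23.9 CPM per kb (21.1 to 27.1) and 23.4 CPM per kb (22 to 24.9). CTR9, the large scaffold subunit built of tetratricopeptide repeats, had 107 and 65.3 CPM, or 23.3 CPM per kb (21.8 to 25) and 14.2 CPM per kb (13.6 to 14.9). The order of WDR61 and CTR9 was not resolved in the knockout fit, where their ratio was 1.03 (0.889 to 1.18), and was 1.64 (1.52 to 1.78) in favour of WDR61 in the reconstitution fit.

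RTF1, which promotes ubiquitination of histone H2B, had 86.8 CPM in the knockout fit and 69.3 CPM in the reconstitution fit, or 17.3 CPM per kb (16 to 18.7) and 13.8 CPM per kb (13.2 to 14.4). LEO1, the partner of PAF1 in a stable heterodimer, had 37.4 and 17.4 CPM, or 17 CPM per kb (15.1 to 19.1) and 7.95 CPM per kb (7.29 to 8.66). CDC73, the tumor suppressor parafibromin, had 79.5 and 50.4 CPM, or 13 CPM per kb (12 to 14.1) and 8.27 CPM per kb (7.86 to 8.69). RTF1 and LEO1 had like levels in the knockout fit, with a ratio of 1.01 (0.884 to 1.17), and RTF1 was 1.74-fold (1.58 to 1.91) above LEO1 in the reconstitution fit. LEO1 and CDC73 were not resolved in the reconstitution fit (ratio 0.962, 0.87 to 1.06). LEO1 and CDC73 thus had the lowest values on this scale in both fits, with LEO1 not resolved from RTF1 in the knockout fit, and both fell below the median of all genes in the reconstitution fit.

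Across PAF1c, the highest subunit exceeded the lowest 5.59-fold in the knockout fit (PAF1 over CDC73, 5.06 to 6.17) and 10.4-fold in the reconstitution fit (PAF1 over LEO1, 9.48 to 11.4). PAF1 was 3.04-fold (2.65 to 3.49) above WDR61, the next subunit, in the knockout fit and 3.52-fold (3.29 to 3.77) in the reconstitution fit. Of the 15 pairs of subunits, 13 had a ratio whose counting interval lay clear of 1 in each fit, and 14 had the same order in both fits. The ratios moved more with the choice of length than their counting intervals are wide, except for PAF1 over LEO1 in the knockout fit, which ran from 4.04 to 5.05 over the lengths. With 4 choices of length (the chosen transcript, the median of the protein-coding transcripts, the union of exons and the coding sequence), 7 of the 15 pairs kept their order in both fits. These are PAF1 above each of the other 5 subunits, CTR9 above LEO1, and RTF1 above LEO1. The order of CDC73 and WDR61 among the remaining subunits depended on the length, and so did that of CTR9 and RTF1. The ratio of CTR9 to RTF1 was 1.35 (1.22 to 1.5) in the knockout fit, but 0.747 with the coding length. In the reconstitution fit it was not resolved (1.03, 0.97 to 1.1). CDC73 has 4507 untranslated bases in a transcript of 6100, and with the coding length its level was 49.9 CPM per kb in the knockout fit, the second of the complex. WDR61 has an exon union of 7279 bases, and with this length its level was 4.56 CPM per kb, the lowest of the complex.

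**Figure D2:**
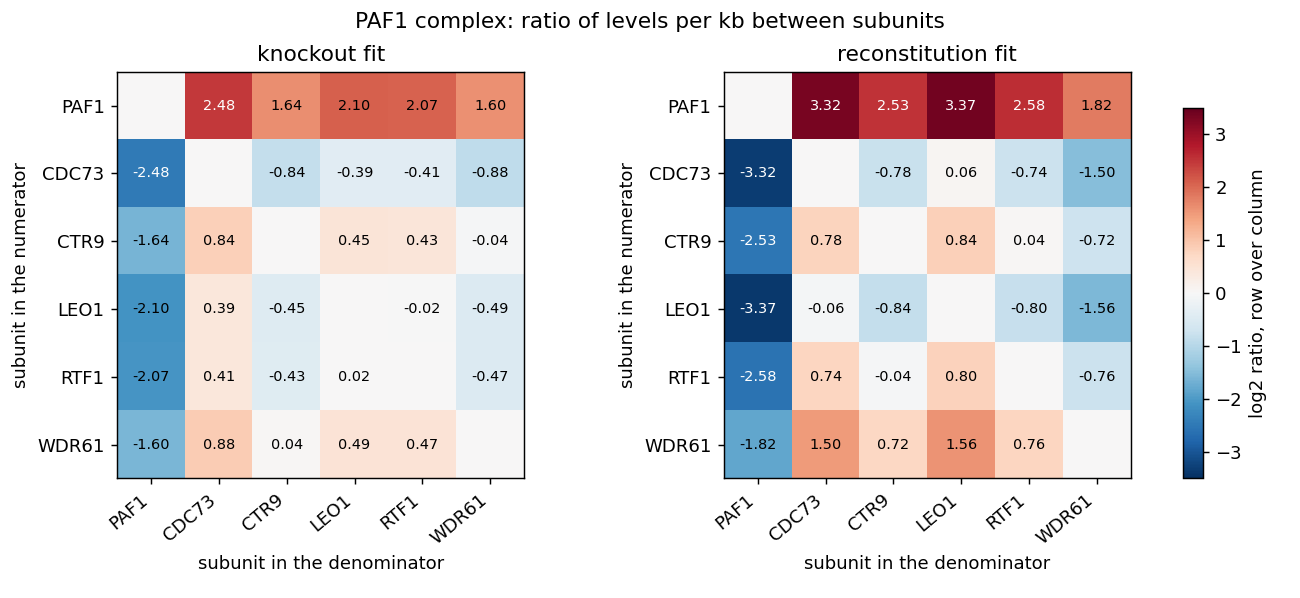
Log2 ratio of the level per kb of the subunit in each row over the subunit in each column, for the 6 PAF1c genes in the knockout fit (left) and the reconstitution fit (right). The PAF1 row is positive throughout, from 1.60 to 2.48 on the left and from 1.82 to 3.37 on the right.

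FACT is a heterodimer of SPT16 and SSRP1 that loosens the contacts of histones H2A and H2B in front of the polymerase. SSRP1, the subunit with the HMG box, had the highest level of all 10 genes, with 453 CPM in the knockout fit and 535 CPM in the reconstitution fit, or 161 CPM per kb (155 to 166) and 190 CPM per kb (187 to 193). SUPT16H, which encodes the large subunit SPT16, had 388 and 303 CPM, or 82.9 CPM per kb (79.9 to 85.9) and 64.6 CPM per kb (63.3 to 66). The ratio of SUPT16H to SSRP1 was 0.516 (0.491 to 0.542) in the knockout fit and 0.341 (0.332 to 0.35) in the reconstitution fit, and it stayed below 1 with each of the 4 lengths, from 0.164 to 0.758. SSRP1 was therefore the more abundant FACT mRNA under every length tried. A pseudogene of SUPT16H, SUPT16HP1, is annotated, so the value of SUPT16H may lack or include reads that it shares with this copy.

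SUPT5H, the gene for SPT5, had 188 CPM in the knockout fit and 223 CPM in the reconstitution fit, or 48.2 CPM per kb (45.7 to 50.7) and 57.1 CPM per kb (55.7 to 58.5). Its DSIF partner SPT4, encoded by SUPT4H1, had 38.6 and 34.2 CPM, or 25.9 CPM per kb (23.1 to 29) and 23 CPM per kb (21.6 to 24.4). SUPT5H was 1.86-fold (1.64 to 2.11) and 2.49-fold (2.33 to 2.66) above SUPT4H1, but with the coding length, only 351 bases for SUPT4H1, these ratios were 0.524 and 0.701, so that the order of the DSIF subunits was not settled. SUPT6H, the gene for the histone chaperone SPT6, had 229 and 282 CPM, or 35.1 CPM per kb (33.4 to 36.7) and 43.3 CPM per kb (42.4 to 44.2). IWS1, which binds SPT6, had 28.8 CPM per kb (26.6 to 31.1) and 20 CPM per kb (19.1 to 21). SUPT6H was 1.22-fold (1.11 to 1.33) and 2.16-fold (2.05 to 2.27) above IWS1, and with the median transcript length the ratios were 0.521 and 0.923.

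A list of 40 other genes, by complex, holds elongation factors but also histone-modifying enzymes, other histone chaperones and SKI subunits. All 40 were measured in both fits, and 26 lay above the median of all genes in each fit. The median level of the 40 genes was 18.7 CPM per kb in the knockout fit and 17.4 CPM per kb in the reconstitution fit. The 10 members had medians of 29.5 and 33.3 CPM per kb. The places of genes within these lists are given for the chosen transcript only. NELF holds the paused polymerase together with DSIF. Its genes ranged from NELFA (21 and 22.1 CPM per kb) over NELFB (29.6 and 30.1) and NELFCD (46.7 and 43.4) to NELFE (103 and 108). This span was 4.9-fold in the knockout fit, against 5.59-fold for PAF1c. In the reconstitution fit it was 4.89-fold, against 10.4-fold for PAF1c. In the list of P-TEFb, the kinase that releases the pause, and its 7SK inhibitors, HEXIM1 was the highest gene (30.8 and 38.4 CPM per kb), and the lowest were the cyclins CCNT1 in the knockout fit (2.11) and CCNT2 in the reconstitution fit (1.55). The super elongation complex had the lowest median among the lists with several genes (6.35 and 5.53), with MLLT1 at the top (17.9 and 22.7) and MLLT3 at the bottom (3.1 and 2.33). In the list of the elongation factors TFIIS and elongin, ELOB was highest (245 and 220 CPM per kb). ELOB lay above SSRP1 with the chosen transcript but below it with the median transcript length (558 and 659 CPM per kb for SSRP1). The lowest genes of this list were ELOA (22.4) in the knockout fit and ELOC (20.5) in the reconstitution fit. CDK12 (15.6 and 17.4) lay above CDK13 (5.32 and 5.03) among the kinases of the polymerase tail. In the list for H2B ubiquitination, which PAF1c stimulates, the E2 enzyme gene UBE2A was highest (59.5 and 52.2) and the E3 ligase gene RNF20 lowest (15.3 and 12.5). SETD2, which methylates histone H3 behind the polymerase, had 7.61 and 4.92 CPM per kb. Of the other histone chaperones, ASF1B was highest (52.7 and 39.7) and SPTY2D1 lowest (6.02 and 4.76), both below SSRP1 and SUPT16H with the chosen transcript. With its coding length of 606 bases, ASF1B had 179 and 135 CPM per kb. This is above the highest values of SUPT16H over the lengths (139 and 108), so the order of ASF1B and SUPT16H was not settled.

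WDR61 can also be set beside its SKI partners. SKIV2L, the helicase, had 24.8 and 27.7 CPM per kb, and TTC37, the scaffold, 13.6 and 5.48 CPM per kb. The ratio of WDR61 to SKIV2L was 0.967 (0.837 to 1.12) in the knockout fit and 0.845 (0.786 to 0.908) in the reconstitution fit. The order of WDR61 and SKIV2L turned with the length, since the ratios were 1.41 and 1.23 with the coding length, 0.311 and 0.272 with the median transcript length, and 0.263 and 0.23 with the union of exons.

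**Figure D3:**
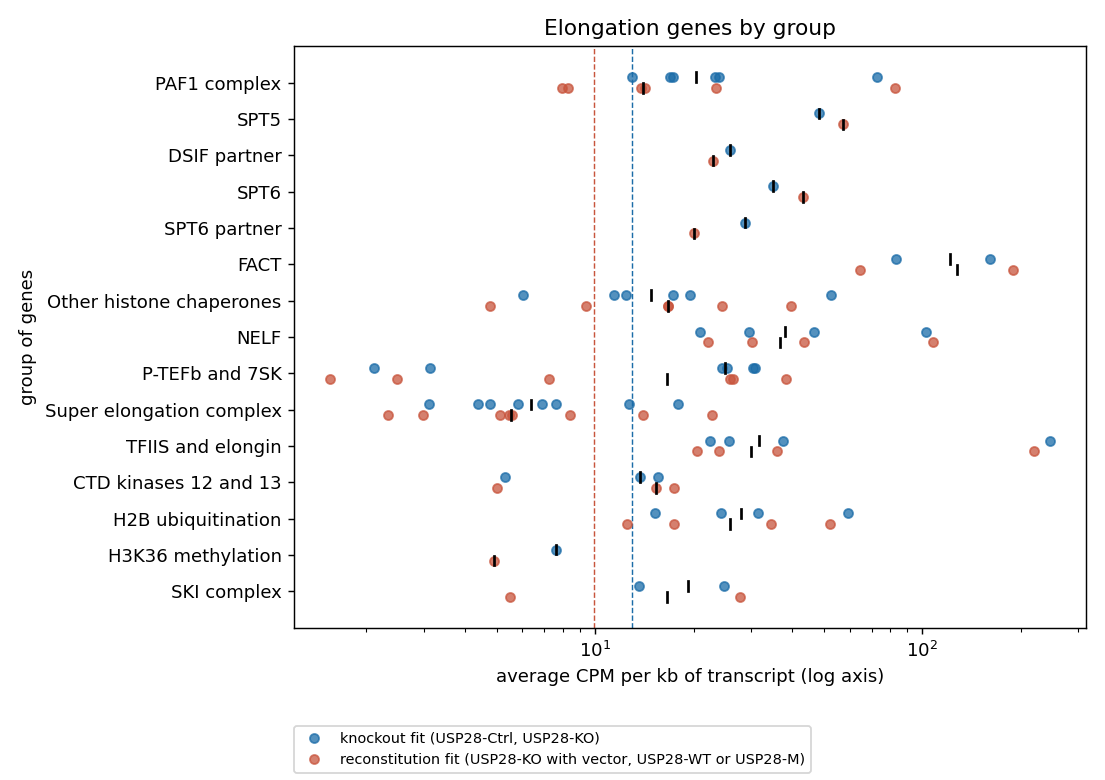
Average CPM per kb of transcript (log axis) of the 10 members and the 40 other listed genes, 1 point per gene and fit (blue, knockout fit, and red, reconstitution fit). Genes are arranged by group, with black ticks at the group medians and dashed lines at the medians of all genes. FACT has the highest median, 122 and 127 CPM per kb, and the PAF1 gene lies to the right of the other PAF1c subunits.

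The fits were normalized separately and average different USP28 conditions, so that normalization, libraries and condition cannot be told apart in the difference between them, which was not tested. Set side by side, the 5 members with the most AT-rich transcripts had lower averages in the reconstitution fit, and the 4 with the most GC-rich transcripts had higher ones. Most genes of the tables did the same: 79.5% of all genes with a GC content under 47% were lower in the reconstitution fit, against 41.7% of those from 53% on. The average log2 CPM in the reconstitution fit minus that in the knockout fit was -1.10 for LEO1, -0.71 for CTR9, -0.66 for CDC73, -0.36 for SUPT16H and -0.32 for RTF1. The transcripts of these 5 genes have a GC content of 35.7% (CDC73) to 46.6% (RTF1). For WDR61, with a GC content of 48.2%, the difference was -0.03. For SSRP1, SUPT6H, PAF1 and SUPT5H, with a GC content of 53.1% to 58.2%, it lay between 0.18 (PAF1) and 0.30 (SUPT6H). Over all genes in both fits the median difference was -0.40 for 4796 genes with a GC content under 47%, 0.06 for 2148 genes from 47% to 53%, and 0.07 for 3740 genes from 53% on. These ranges were chosen after the members' values had been seen. Across all 10684 genes Spearman's rho was 0.48, as a description over genes that share their libraries. The ratios of PAF1 to LEO1 and of SSRP1 to SUPT16H each set a GC-rich against a GC-poor transcript and were larger in the reconstitution fit. Among the 5 genes under 47%, LEO1 (42.6% GC) differed more between the fits than CDC73 (35.7%). The part of base composition in these differences was not tested.

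**Figure D4:**
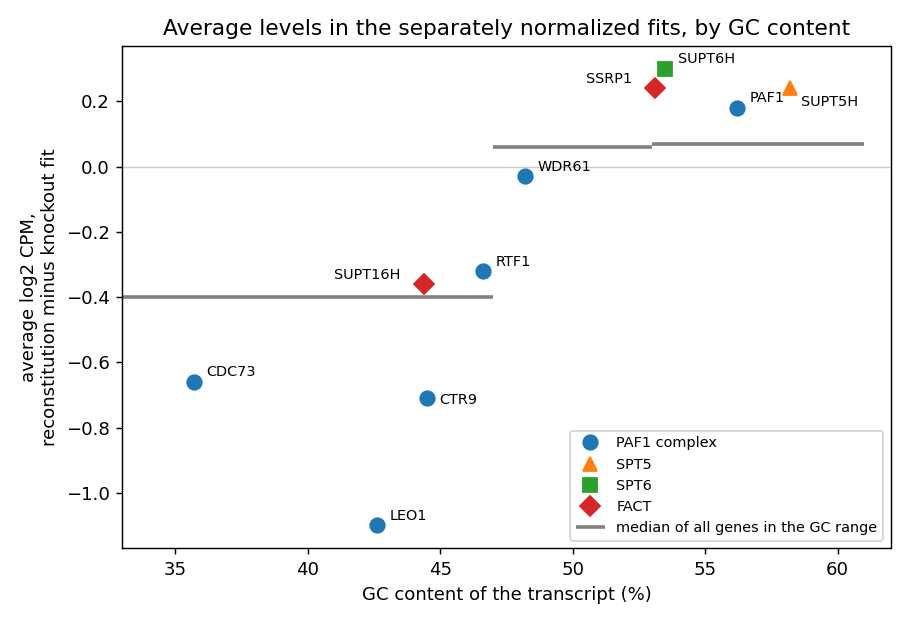
Average log2 CPM in the reconstitution fit minus that in the knockout fit (vertical axis) against the GC content of the transcript in percent (horizontal axis), 1 point per gene, with gray bars at the median of all genes in 3 GC ranges. The 5 genes under 47% lie between -1.10 and -0.32, and the 4 genes above 53% between 0.18 and 0.30.

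The genes are spread over several chromosomes. PAF1 and SUPT5H, however, are neighbours on chromosome 19, with 4 protein-coding genes between them in RefSeq order (MED29, ZFP36, PLEKHG2 and RPS16), and RTF1, LEO1 and WDR61 all lie on chromosome 15. Of the 10 genes, 9 matched a promoter window in the RefSeq table (build GRCh38.p14), which spans 250 bases before to 50 after the start. CDC73 had no entry, and SUPT5H had 2 windows. Windows are shown for PAF1, the highest PAF1c gene, for LEO1 and for the FACT pair. With the chosen transcript, LEO1 was the lowest PAF1c gene in the reconstitution fit, though not resolved from CDC73. CDC73, the lowest PAF1c gene in the knockout fit with that transcript, has no window to show. Printed are the 100 bases before the start, 5′ to 3′ on the strand of the gene, with a CCAAT motif in capitals. All 4 genes shown lie on the minus strand. The shown stretches are chr19:39391107-39391206 for PAF1, chr15:51971779-51971878 for LEO1, chr11:57335893-57335992 for SSRP1 and chr14:21384020-21384119 for SUPT16H.
PAF1: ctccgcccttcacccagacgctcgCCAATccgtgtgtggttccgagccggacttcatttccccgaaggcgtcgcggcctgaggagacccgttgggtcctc
LEO1: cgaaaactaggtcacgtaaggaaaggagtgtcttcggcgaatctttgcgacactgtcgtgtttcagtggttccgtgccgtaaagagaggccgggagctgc
SSRP1: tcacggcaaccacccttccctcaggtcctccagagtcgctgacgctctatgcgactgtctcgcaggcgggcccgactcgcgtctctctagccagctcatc
SUPT16H: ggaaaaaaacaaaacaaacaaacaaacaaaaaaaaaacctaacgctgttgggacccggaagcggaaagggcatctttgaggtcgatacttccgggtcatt

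Letters were searched on both strands of the 300-base windows. The CCAAT motif occurred 3 times in the window of PAF1, of which 1 falls in the stretch shown, and once in that of SUPT16H, across its start, and is present in 34.6% of all 35116 windows. CACGTG, the E-box that MYC is known to bind, occurred once, 237 bases before the start of SUPT16H, and in no other member's window, against 7.26% of all windows. TATAAA was in none of the members' windows and in 11.5% of all windows. The GC content of the members' windows ran from 52.3% (SUPT16H) to 71.3% (RTF1), with a median of 58.7% over all windows. The GC content of a promoter did not follow that of its transcript, since RTF1 and CTR9 (66.3%) have GC-rich promoters and GC-poor transcripts. A match of letters is a description only.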

How the data were processed

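The authors aligned reads of HLF libraries with STAR 2.5.4 to hg19 and compared conditions with edgeR 3.26.8, as their processing notes list, and bcl2fastq 2.20 is named as well. The counting tool, the filter on low genes and the libraries per condition are not given in the sources used here. The 3 deposited tables hold, per gene, the authors' average log2 CPM, which was used, and their fold changes, p-values, adjusted p-values and, for reconstituted cells, F statistics, which are results of the authors' own comparisons and were not used. No table has a column of single samples. Since the tables hold no counts, no test between conditions was made.

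Average log2 CPM was turned into CPM and divided by transcript length from GENCODE release 29, matched by NCBI gene ID (97.1% of genes in the knockout fit, 95.9% in the reconstitution fit). Only lengths and GC content were taken from GENCODE, which is on another build than hg19. Percentiles are over all genes of a fit. Reads per gene were worked out from the step of the lowest averages (0.13 CPM per read, with 98.1% of 722 low genes within 0.1 reads of a whole number, and 0.0328 CPM per read, with 68.1% of 1140). This step search was tested only on simulated Poisson counts in libraries of nearly equal size. The sizes of the real libraries are not known here, so the simulation does not vouch for these read numbers. Intervals are exact Poisson for a level and exact Clopper-Pearson for a ratio, at 95%. The kit was used without a stated strand setting, and exons of other genes cover at most 3.02% of a member's exons (WDR61).

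The members, lists and measures were chosen with earlier results of these data known. The GC ranges, motifs and printed promoter stretches were chosen after the values had been seen. The full hepatocyte marker list is not reported here. Named beside the members are the partners, NELF, and the highest and lowest gene per kb of each other list. Computations used Python 3.11.15, numpy 2.4.6, scipy 1.17.1 and matplotlib 3.10.9.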

Additional observations from a re-analysis of the deposited data

How the results depend on the processing

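The highest over the lowest PAF1c subunit was 2.48 on the log2 scale in the knockout fit. This spread was 2.64 with the median transcript length, 3.63 with the union of exons and 2.34 with the coding length. In the reconstitution fit (3.37) it was 3.84 with the union of exons and 3.62 with the coding length. The lowest subunit changed with the length, so the spread is not the ratio of a fixed pair. In the knockout fit the lowest was CDC73 with the chosen transcript and the median length, WDR61 with the union and LEO1 with the coding length. In the reconstitution fit it was LEO1, or WDR61 with the union. PAF1 over CDC73 in the knockout fit was 5.59-fold with the chosen transcript and 1.89-fold with the coding length. For SUPT16H over SSRP1 (-0.96 in the knockout fit, -1.55 in the reconstitution fit) the median length gave -2.01 and -2.61, the union -0.40 and -1.00, and the coding length -0.78 and -1.38. For SUPT5H over SUPT4H1 (0.89 and 1.31) the median length gave 0.51 and 0.93, the union 0.24 and 0.66, and the coding length reversed the sign to -0.93 and -0.51. For SUPT6H over IWS1 (0.29 and 1.11) the median length reversed the sign to -0.94 and -0.12, and the union gave 0.07 and 0.90. These shifts come from the lengths by construction. Each value given so far for another length lies outside the counting interval of the value with the chosen transcript. For the PAF1c spread, this interval is that of the highest and lowest subunits with the chosen transcript. Other values stayed inside it, namely the PAF1c spread with the median length in the reconstitution fit (3.49) and SUPT6H over IWS1 with the coding length (0.35 and 1.18). Subtracting a prior of 2 reads per library, with 3 libraries per condition assumed, left the PAF1c spread and each ratio within its counting interval. The count of members above the median of all genes was 8 or 9 with the union of exons, the coding length and a floor of 3 on the average log2 CPM. The coding length from GENCODE was chosen after seeing the data, in place of RefSeq protein lengths, which were not used here. Leaving out a replicate was not run, since the tables give averages only. No paired analysis was possible because the averages carry no replicate numbers.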
